A study of Mus musculus with 4 samples.

Results

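The 10 neuropeptide and granin genes followed here, in crest-derived cells sorted from embryonic mouse gut, are the peptide precursors Gal, Cartpt, Npy, Vip and Cck and the granins Scg2, Scg3, Scg5, Chga and Chgb. They were taken by symbol from the deposited table, with a single row for each Entrez identifier, and all 10 were found among its 27178 genes. The 2 groups were cells at the wavefront, the leading edge of the crest cells that colonise the gut, and cells trailing 1 to 1.5 mm behind it, each with 2 libraries. At 11.5 days post coitum, all cells were taken from guts of Wnt1-tdT mice, in which a red fluorescent reporter tied to Wnt1 marks neural crest derivatives as a whole, so the sort takes crest progenitors and their descendants together. Cells were released with collagenase and dispase, sorted for the reporter and lysed in Trizol. Nothing in the labels tells whether the replicates were separate embryos or litters. The p-values thus cover only library-to-library spread, which may be technical.

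Neuropeptides are made as precursors that enter dense core vesicles, where prohormone convertases and carboxypeptidases cut them and peptidylglycine alpha-amidating monooxygenase amidates many of them. Granins are acidic proteins of the same vesicles. They help to form the vesicles, sort cargo into them and give rise to peptides of their own. In the mature gut, Gal, Vip, Npy, Cartpt and Cck mark overlapping classes of enteric neurons, and Cck and the chromogranins are also products of enteroendocrine cells of the epithelium.

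The promoters of these genes are shown first because the cyclic AMP response element, a DNA element bound by factors of the CREB family, has long been described upstream of several neuropeptide and granin genes. RefSeq's GRCm38.p6 table holds a single promoter, 250 bases before to 50 after the annotated start, for each of the 10 genes. A search on both strands for the full element, TGACGTCA, and for its core, TGACG, found the full element in 3 of the 10 promoters and the core in 9, where every full element holds the core on each strand. Of all 32851 promoters held there, 1.79% hold the full element and 20.8% the core. The motifs were chosen with these promoters in view, and a match is a description of the letters, not a shown binding site. The 29 bases around 1 core of each of the 9 genes read as follows, 5′ to 3′ on the gene's strand, with the core on either strand in capitals, so that a full element shows as 8 capitals.

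Cartpt: cccggcgggcatTGACGTCAaacggcagc
Chgb: ggggctgctccgTGACGTCAgggctgagc
Scg2: aggctgagccggTGACGTCAgcgtggaat
Chga: ggggcggtcctaTGACGtaatttcctggg
Vip: ggatcactactgTGACGtctttcggggag
Cck: cctgctggactgCGTCAgcactgggtaaa
Scg3: gcgctgggtcgcTGACGccatcctcacgc
Gal: gcgctgagccggTGACGcggcagctccca
Scg5: aaaggaggtaaaTGACGttcataggggtc

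The windows lie at chr13:99900779-99900807, minus strand for Cartpt, chr2:132781558-132781586, plus strand for Chgb, chr1:79440078-79440106, minus strand for Scg2, chr12:102554885-102554913, plus strand for Chga and chr10:5639127-5639155, plus strand for Vip. The others lie at chr9:121495725-121495753, minus strand for Cck, chr9:75684070-75684098, minus strand for Scg3, chr19:3414509-3414537, minus strand for Gal and chr2:113829250-113829278, minus strand for Scg5. The core begins 112 bases before the start in Cartpt, 79 in Vip, 72 in Chgb, 68 in Scg2, 47 in Cck, 44 in Chga and 30 in Scg3. In Gal it begins 19 bases after the start, in transcribed sequence, and Scg5 has 3 cores, of which only the 1 shown is upstream. The Npy promoter holds no match to the core. An AT-rich TATA box, TATAAA, was found in Vip and Chga, against 13.6% of all promoters, and the E-box CAGCTG in Chga and Chgb, against 16.3%. In Chga the TATA box falls 5 bases after the RefSeq start, and GENCODE M21 places the gene's start further downstream. Matches were present in genes with many reads, such as Cck, and in Scg2 and Vip, which had 1 read each.

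**Figure D1:**
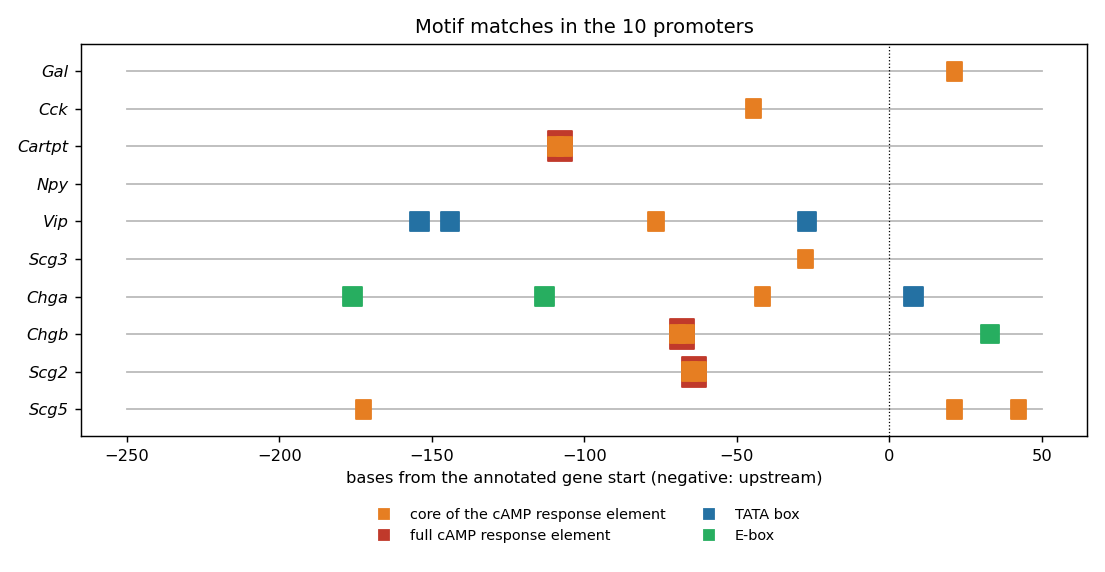
Positions of 4 motifs in the 10 promoters, in bases from the annotated gene start (dotted line; 250 bases upstream to 50 downstream). Boxes mark matches on either strand: the full cyclic AMP response element appears in Cartpt, Chgb and Scg2, its core in 9 promoters, all but that of Npy.

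The 250 bases upstream of Gal, Cck and Scg3, the members with the most reads, are given whole to show what lies before their starts. They span chr19:3414545-3414794, minus strand for Gal, chr9:121495695-121495944, minus strand for Cck and chr9:75684057-75684306, minus strand for Scg3 (GRCm38.p6), with cores in capitals, of which Gal has none upstream. For these genes RefSeq and GENCODE M21 place the start at the same base. For Cartpt, Chgb and Scg2, the 3 genes with a full element, GENCODE places the start further upstream, so that the element lies within the gene's span.

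Gal: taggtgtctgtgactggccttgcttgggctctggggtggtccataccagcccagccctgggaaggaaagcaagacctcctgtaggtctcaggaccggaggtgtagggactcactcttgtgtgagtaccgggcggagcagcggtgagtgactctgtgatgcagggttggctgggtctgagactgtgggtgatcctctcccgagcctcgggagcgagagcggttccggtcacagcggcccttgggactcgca
Cck: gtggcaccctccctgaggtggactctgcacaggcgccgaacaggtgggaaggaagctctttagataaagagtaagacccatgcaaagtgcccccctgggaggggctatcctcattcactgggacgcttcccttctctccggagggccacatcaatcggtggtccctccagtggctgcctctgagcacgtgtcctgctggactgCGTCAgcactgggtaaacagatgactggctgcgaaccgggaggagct
Scg3: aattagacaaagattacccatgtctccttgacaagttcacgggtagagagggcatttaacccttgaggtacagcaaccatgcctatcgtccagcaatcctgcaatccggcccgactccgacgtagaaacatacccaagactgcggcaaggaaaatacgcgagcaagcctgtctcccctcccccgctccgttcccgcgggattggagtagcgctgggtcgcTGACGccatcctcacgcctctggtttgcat

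The libraries were shallow. Recovered reads numbered 535636 and 258457 at the wavefront and 511074 and 447224 in trailing cells, of which 452144 and 114972 at the wavefront and 386540 and 330644 in trailing cells lay outside ribosomal RNA. Ribosomal RNA took 15.6% and 55.5% of the wavefront libraries against 24.4% and 26.1% of the trailing libraries, so wavefront replicate 2 stands apart, and calls are also given without it. Levels are therefore given as reads and as scaled CPM, which are CPM rescaled by TMM, a method that reduces the weight of a few very abundant RNAs. In scaled CPM 1 read is worth 1.59 and 5.57 at the wavefront and 1.79 and 1.99 in trailing cells. Intervals on counts cover counting error only and take each read as independent. The library kit adds no molecular identifiers, so copies of a molecule may count as separate reads and the intervals may be too narrow.

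Of the 10 genes, 9 had a read in some library. The 10 together held 70 and 15 reads at the wavefront against 236 and 287 in trailing cells, which is 111 and 83.6 scaled CPM at the wavefront and 423 and 570 scaled CPM in trailing cells. Both wavefront libraries lay below both trailing libraries, and the same held gene by gene for Gal, Cck, Cartpt, Scg3, Chga and Chgb, 6 of the 10. Of all genes with a read, 19.8% had both wavefront libraries below both trailing ones. With 2 libraries against 2, an exact two-sided permutation test of a single value cannot go below 0.333, so calls rest on fits across all genes. In bulk RNA, fewer cells of a type and less RNA per cell cannot be told apart.

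The count test was edgeR's quasi-likelihood test on the recovered reads. Its filter, about 10 reads at the median library size in at least 2 libraries, kept 4 of the 10 genes. Gal and Cck reached it in all 4 libraries, while Cartpt and Scg3 reached it in the trailing libraries alone and so could only be called lower. The share called among the 4 says nothing of the other 6. All 4 were lower at the wavefront at a Benjamini-Hochberg adjusted p under 0.05 and 0 were higher, while of the 5759 tested genes 1.34% were called lower (77) and 0.399% higher (23), a split that library size alone, without TMM, made 65 lower and 9 higher. Fitted on every gene with a read, which takes in 9 of the 10, the same test called 5 lower, those 4 and Chga, against 0.562% of 14589 genes lower and 0.24% higher. The 9 had a median log2 fold change (all fold changes are wavefront over trailing) of -2.35, and all genes with a read one of -0.08. Limma on log2(CPM + 1), the test planned for CPM values, called 0 of the 7 members it tested and 0% of 12519 genes. At an unadjusted p under 0.05 it had 6 of the 7 lower, against 5.78% of all genes. With DESeq2 size factors limma called 1 of 7, Gal, against 0.056% of genes lower and 0.016% higher. DESeq2 called 1 of the 3 members to which it gave an adjusted p, Gal, against 0.213% of genes lower and 0.064% higher. With p-values from the authors' deposited table, after Benjamini-Hochberg adjustment here, 1 of 9 was called, Gal, against 0.0685% of genes lower and 0.0206% higher. Those p-values come from the same libraries, and the submitters' processing also used DESeq2, so they are not separate evidence.

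**Figure D2:**
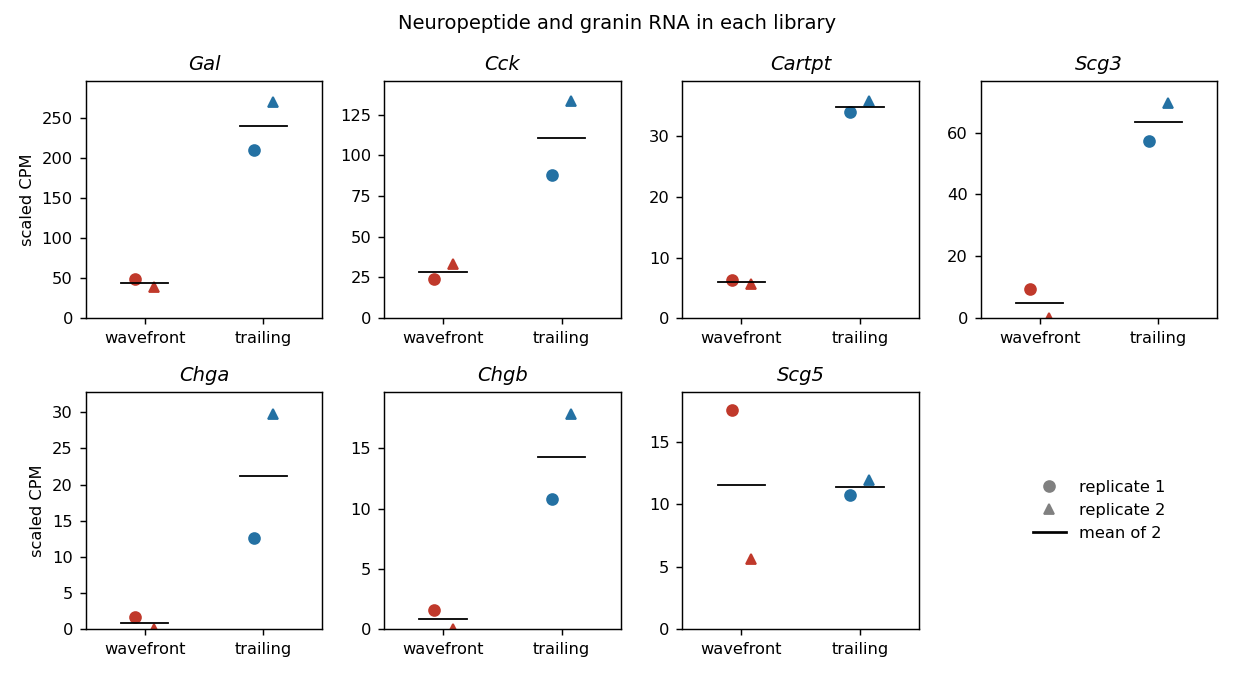
Scaled CPM (linear axes from 0) in each library of the 7 members with more than 10 reads summed over the 4 libraries. Wavefront is left and trailing right, circles are replicate 1, triangles replicate 2 and lines the mean of 2. In 6 genes both wavefront libraries lie below both trailing libraries; for Scg5 the wavefront libraries, at 17.5 and 5.57, lie on either side of the trailing ones.

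Galanin RNA was the most abundant of the 10 in every library. Gal (chr19:3409915-3414544, GRCm38, minus strand), the precursor of a peptide that modulates transmitter release in enteric and other neurons, had 31 and 7 reads at the wavefront against 117 and 136 in trailing cells. That is 49.3 and 39.0 scaled CPM at the wavefront and 209.9 and 270.3 scaled CPM in trailing cells. The groups are wide apart and the libraries within each are close. The means were 44.2 ± 7.30 scaled CPM at the wavefront and 240.1 ± 42.7 in trailing cells (SD, n = 2 each). The log2 fold change was -2.37 ± 0.35 (SE; edgeR with Benjamini-Hochberg, adjusted p = 5.96e-06). Gal stayed under the threshold in all 12 alternative count fits, with adjusted p between 6.93e-06 and 0.00761. The authors' deposited table gave Gal a log2 fold change of -1.80 with a standard error of 0.40, smaller in size than the fold of the count test. DESeq2 run here gave -2.38 with a standard error of 0.53. Its unadjusted p was 7.21e-06, close to the 5.17e-06 of the deposited table, so the p-values were alike while the folds differed.

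Cholecystokinin RNA was second in reads. Cck (chr9:121489824-121495694, minus strand), whose peptides act as gut hormones and as transmitters of neurons, had 15 and 6 reads at the wavefront against 49 and 67 in trailing cells, or 23.9 and 33.4 scaled CPM against 87.9 and 133. The higher wavefront value lay well under the lower trailing value. The log2 fold change was -2.05 ± 0.38 (edgeR, adjusted p = 0.000409). It passed in 8 of 12 alternatives: without wavefront replicate 2 the edgeR adjusted p was 0.000212, without wavefront replicate 1 it was 0.163 and without trailing replicate 2 it was 0.082, DESeq2 gave 0.338 and the authors' p-values gave 0.948.

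Cartpt RNA was near 35 scaled CPM in both trailing libraries. Cartpt (chr13:99898489-99901091, minus strand), the precursor of the CART peptides of brain and enteric neurons, had 4 and 1 reads at the wavefront against 19 and 18 in trailing cells. In scaled CPM these were 6.36 and 5.57 at the wavefront and 34.1 and 35.8 in trailing cells. The wavefront values rest on 4 reads and 1 read, so their closeness says little of spread. Over summed reads the scaled ratio, wavefront over trailing, was 0.177, with an exact binomial counting interval of 0.0544 to 0.452. By the authors' p-values the adjusted p of Cartpt was 0.9997, and DESeq2 gave it no adjusted p. The log2 fold change was -2.45 ± 0.64 (edgeR, adjusted p = 0.0282). It passed in 6 of 11 alternatives: the edgeR adjusted p was 0.0218 without wavefront replicate 2, 0.28 without wavefront replicate 1, and 0.563 and 0.515 without trailing replicate 1 and 2.

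Vip and Npy were close to absent from these reads. Vip, the vasoactive intestinal peptide of inhibitory motor and secretomotor neurons, had 0 and 0 reads at the wavefront and 0 and 1 in trailing cells. Npy, neuropeptide Y, which enteric and sympathetic neurons make, had 0 reads in all 4 libraries. At this depth a count of 0 allows levels up to 3 reads, or 5.52 and 11.5 deposited CPM at the wavefront and 5.80 and 6.64 in trailing cells. No fold is given for either gene.

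Among the granins, Scg3 had the most reads in trailing cells and in all, and was lower at the wavefront. Scg3 (chr9:75643189-75684056, minus strand), secretogranin III, binds chromogranin A and cholesterol-rich vesicle membrane and helps to sort cargo. It had 6 and 0 reads at the wavefront against 32 and 35 in trailing cells, which is 9.55 and 0 scaled CPM against 57.4 and 69.6. The log2 fold change was -3.07 ± 0.55 (edgeR, adjusted p = 0.000237), and over summed reads the scaled ratio, wavefront over trailing, was 0.118 (95% exact binomial interval 0.0417 to 0.27). The fold rests on 1 library: it was -7.72 without wavefront replicate 1, where the wavefront library left has 0 reads and the fitted value is no bound, and -2.65 without wavefront replicate 2. Scg3 passed in 10 of 12 alternatives, among them every fit that left out 1 library, though not in DESeq2 (adjusted p = 0.271) or by the authors' p-values (0.61). On the other strand Scg3 overlaps 688 bases of Gm37871, an unverified transcript not in the table, and the library kit does not mark strand.

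Chga and Chgb were low in trailing cells and nearly unread at the wavefront. Chga (chr12:102554969-102565028, plus strand), chromogranin A, a driver of dense core vesicle formation, had 1 and 0 reads at the wavefront against 7 and 15 in trailing cells. The scaled ratio of reads, wavefront over trailing, was 0.0597, with a 95% exact binomial counting interval of 0.00145 to 0.369. Chgb (chr2:132781278-132795079, plus strand), chromogranin B, had 1 and 0 reads at the wavefront against 6 and 9 in trailing cells, a scaled ratio of 0.0875 (0.00208 to 0.569). Both intervals lie below 1, with counting error alone in view. Both genes missed the filter of the count test. Fitted on every gene with a read, edgeR gave an adjusted p of 0.0175 for Chga and 0.223 for Chgb, and with the filter at 5 reads neither passed.

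Scg5 did not share this pattern. Scg5 (chr2:113776362-113829121, minus strand), the 7B2 protein that chaperones prohormone convertase 2, had 11 and 1 reads at the wavefront against 6 and 6 in trailing cells. The wavefront libraries, at 17.5 and 5.57 scaled CPM, lay above and below the trailing libraries, at 10.8 and 11.9. In the fit on every gene with a read the log2 fold change was 0.36 ± 0.65 (edgeR, adjusted p = 0.896). The scaled ratio of reads was 1.31, with a counting interval of 0.539 to 3.19, so a difference in either direction was not detectable at this depth. Scg2, secretogranin II, the precursor of secretoneurin, had 1 and 0 reads at the wavefront and 0 and 0 in trailing cells. The difference in change between Scg5 and the other granins was not tested.

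**Figure D3:**
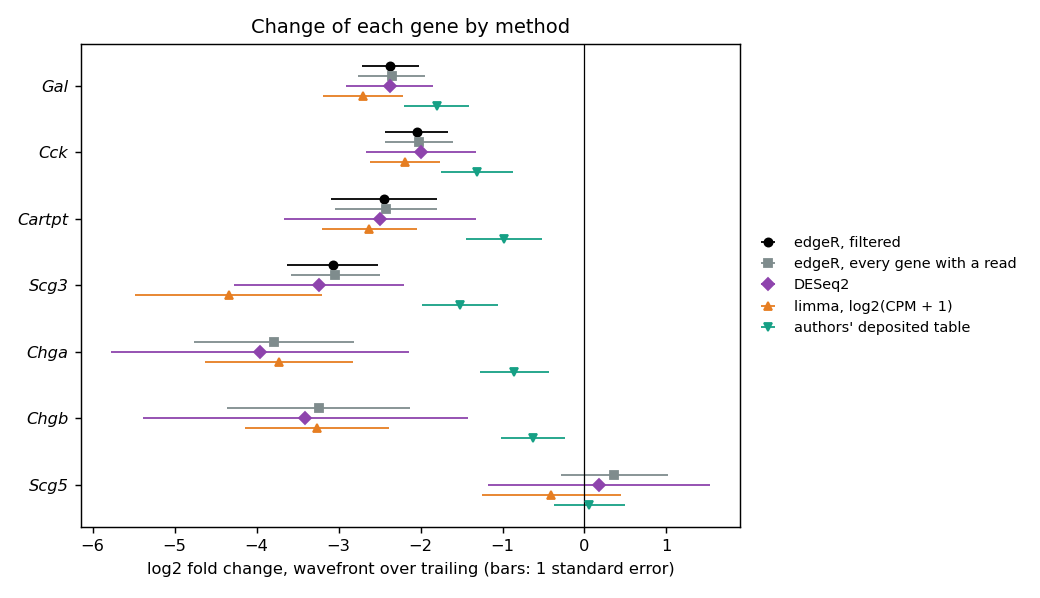
Log2 fold change, wavefront over trailing, of the 7 members with more than 10 reads by each method, with bars of 1 standard error; edgeR with its filter has points for 4 genes. All points of Gal, Cck, Cartpt, Scg3, Chga and Chgb lie below 0, those of the authors' deposited table nearest to it, and the points of Scg5 lie on both sides of 0.

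Per kilobase of merged exon sequence, which allows levels to be set side by side between genes, the order in trailing cells was Gal, Cck, Cartpt, Scg3, Chga, Scg5, Chgb and Vip. Gal had 266 and 343 scaled CPM per kilobase there and Cck 67.4 and 102, so these levels do not overlap. Cartpt, at 26.7 and 28.0, lay just above Scg3, at 20.97 and 25.4. The trailing values of Chga (4.56 and 10.8), Scg5 (6.86 and 7.60) and Chgb (3.93 and 6.53) span a common range, and their order is within the spread of the libraries. At the wavefront Gal, at 62.6 and 49.5 scaled CPM per kilobase, and Cck, at 18.3 and 25.6, kept the first places. There Scg5, at 11.2 and 3.55, overlapped Cartpt, at 4.98 and 4.36.

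The make-up of the reads of the 10 genes within a library does not depend on scaling. Gal took 44.3% and 46.7% of them at the wavefront against 49.6% and 47.4% in trailing cells. The 95% exact binomial intervals, 32.4 to 56.7% and 21.3 to 73.4% at the wavefront and 43.0 to 56.1% and 41.5 to 53.3% in trailing cells, overlap throughout. Cck took 21.4% and 40.0% at the wavefront (intervals 12.5 to 32.9% and 16.3 to 67.7%) against 20.8% and 23.3% in trailing cells. The share of Scg5 was 15.7% (8.11 to 26.4%) in wavefront replicate 1, above 2.54% (0.939 to 5.45%) and 2.09% (0.771 to 4.49%) in the trailing libraries, and in wavefront replicate 2 it was 6.67%, from 1 of 15 reads (0.169 to 31.9%). Only wavefront replicate 1 has an interval for Scg5 that clears both trailing libraries. The 5 peptide genes summed to 79.6 and 78.0 scaled CPM at the wavefront against 332 and 441 in trailing cells. The 5 granin genes summed to 31.8 and 5.57 at the wavefront against 91.5 and 129.

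**Figure D4:**
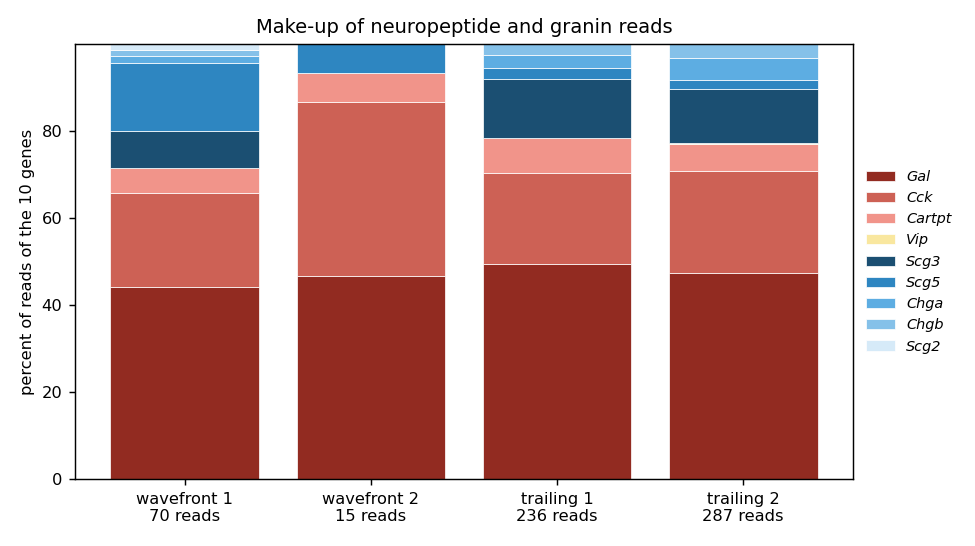
Percent of the reads of the 10 genes that each gene took in each library (stacked bars, wavefront left, with the number of reads under each bar; Npy had none). Gal takes between 44.3% and 49.6% in all 4 libraries, while the Scg5 band is widest in wavefront replicate 1.

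Most markers of neurons were lower at the wavefront in the same libraries. Of 8 enteric neuron markers 7 were tested by counts, of which 5 fell, 0 rose and 2 did not pass, with a median log2 fold change of -1.82 against 0.01 over all genes tested, of which 1.34% were called lower and 0.399% higher. Of the 5 that fell, Stmn2, Elavl3 and Prph reached the filter in the trailing libraries alone, so lower was the direction in which they could be called. DESeq2 called 2 of the 7 to which it gave an adjusted p, Tubb3 and Stmn2, against 0.213% of genes lower. Limma called 0 of the 8. The 8 summed to 1120 and 691 scaled CPM at the wavefront against 2456 and 2631 in trailing cells. Tubb3, the neuronal beta tubulin, had 266 and 62 reads at the wavefront against 783 and 668 in trailing cells (log2 fold change -1.82 ± 0.37, edgeR adjusted p = 0.00147). The part of neuron number in the peptide and granin values was not tested. Of 8 markers of enteric crest cells, 6 were tested and 0 passed in edgeR, with 1 at an unadjusted p under 0.05 and 0 called by DESeq2 or limma. The median log2 fold change of the 6 was -0.35. The leading genes Ret, the GDNF receptor, with 1413 and 155 reads at the wavefront against 864 and 545 in trailing cells, and Ngfr, the p75 neurotrophin receptor, with 395 and 83 against 272 and 161, were well covered in all 4 libraries.

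Set against single genes of the same library, the answer depended on the gene. Gal had 11.7 and 11.3 reads for every 100 reads of Tubb3 at the wavefront against 14.9 and 20.4 in trailing cells, with exact binomial intervals that overlap among all 4 libraries. Against Ret, which marks crest cells more broadly, Gal had 2.19 and 4.52 reads for every 100 at the wavefront and 13.5 and 25.0 in trailing cells, and these intervals do not overlap between the groups. Against Elavl4, a neuronal RNA-binding protein, Gal had 25.2 and 33.3 at the wavefront and 67.2 and 78.6 in trailing cells. Against Stmn2, a microtubule regulator of growing axons with 11 and 3 reads at the wavefront and 86 and 96 in trailing cells, the order turned: Gal had 282 and 233 at the wavefront and 136 and 142 in trailing cells, with intervals that overlap. Cck had 5.64 and 9.68 reads for every 100 of Tubb3 at the wavefront against 6.26 and 10.03 in trailing cells. Its wavefront ratios to Stmn2, 136 and 200, were above the trailing ones, 57.0 and 69.8, with intervals that overlap. No test was made of these ratios.

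**Figure D5:**
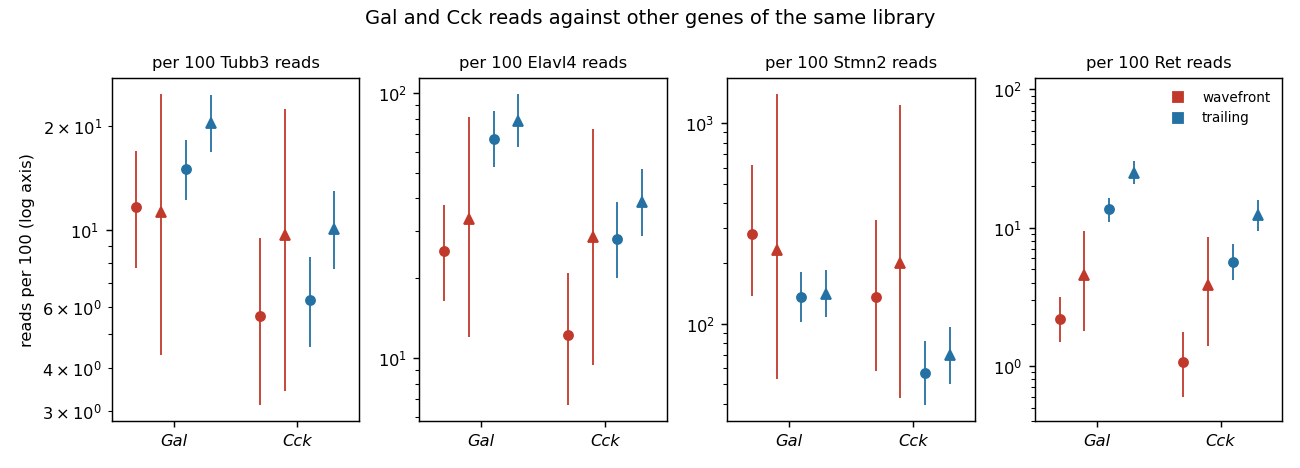
Reads of Gal and Cck for every 100 reads of Tubb3, Elavl4, Stmn2 or Ret in the same library (log axes; circles replicate 1, triangles replicate 2; wavefront red and left, trailing blue; bars are 95% exact binomial intervals). Wavefront ratios lie below trailing ones against Ret, above them against Stmn2 with intervals that overlap, and close to them for Cck against Tubb3. Against Ret the Cck intervals of wavefront replicate 2 and trailing replicate 1 overlap, while those of Gal do not overlap between the groups. Against Elavl4 the wavefront ratios of Gal lie below the trailing ones, though the interval of wavefront replicate 2 overlaps theirs. The Cck ratios against Elavl4 overlap between the groups.

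Few reads came from markers of enteroendocrine cells, gut epithelium, and sympathoadrenal and sensory cells. Gut mesenchyme markers had more reads, and erythroid markers had more in wavefront replicate 2 alone. Markers of enteroendocrine cells, which also express Chga and Cck, summed to 0 and 0 reads at the wavefront and 2 and 3 in trailing cells, with 10 and 10 of the 10 genes at 0 at the wavefront and 8 and 8 in trailing cells. Sct, secretin, led with 2 of these reads, and Neurog3 and Neurod1 had 0 in every library. Gut epithelium markers summed to 13 and 12 reads at the wavefront against 3 and 3 in trailing cells, with Krt8, a keratin, highest at 9 reads in all. Of 8 sympathoadrenal and sensory markers, which Npy and Chga neurons of sympathetic ganglia would share, the sums were 2 and 2 reads at the wavefront and 7 and 17 in trailing cells, with 6 and 7 genes at 0 against 5 and 5. Gata3 gave 3 and 10 of the trailing reads and Isl1 gave 3 and 5, and the part of such cells in the peptide and granin values was not tested. Gut mesenchyme markers, led by Col3a1 and Des, summed to 377 and 902 scaled CPM at the wavefront against 161 and 159 in trailing cells. In edgeR 2 of the 3 tested, the same pair, were higher, against 0.399% of all genes tested. DESeq2 called 0 of 3 of these markers and limma 0 of 10. Erythroid markers, led by Hbb-y and Hba-x, had 1 and 110 reads at the wavefront against 2 and 0 in trailing cells. Their part in the results was not tested.

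Other neuropeptide precursors were almost unread. Of 25 genes listed 7 had a read, 0 passed the count filter, and with every gene with a read fitted 0 were called by edgeR, with 0 at an unadjusted p under 0.05. Adcyap1, the precursor of PACAP, led with 0 and 1 reads at the wavefront against 1 and 5 in trailing cells, then Vgf, a granin-like precursor, with 2 and 0 against 1 and 3. Penk, proenkephalin, had 0 and 2 reads at the wavefront and 0 and 2 in trailing cells, and Nmb and Npff had 2 reads each in all.

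Precursor processing genes showed no calls. All 14 had a read, 5 were tested and 0 passed in edgeR, with 1 at an unadjusted p under 0.05, 0 of 2 called by DESeq2 and 0 of 12 by limma; the median log2 fold change was -0.30. Ctsl, the protease cathepsin L, had 52 and 31 reads at the wavefront against 99 and 78 in trailing cells (-0.53 ± 0.33, edgeR adjusted p = 0.661). Cpe, the carboxypeptidase that trims cut precursors, had 13 and 7 reads at the wavefront against 24 and 28 in trailing cells (-0.94 ± 0.44, edgeR adjusted p = 0.463). Of the tyrosylprotein sulfotransferases, Tpst1 was at 0.11 ± 0.53 and Tpst2 at -0.30 ± 0.53. Some members were singled out after their values were seen. The neuroendocrine convertases Pcsk1 and Pcsk2 had 1 read each in all 4 libraries together. Pcsk1n, proSAAS, an inhibitor of the convertase of Pcsk1, had 1 and 0 reads at the wavefront against 5 and 12 in trailing cells, while the amidating enzyme Pam had 21 and 4 against 5 and 4. Fitted on every gene with a read, edgeR gave adjusted p = 0.123 for Pcsk1n and 0.13 for Pam.

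Among genes of dense core vesicles and their release, some of those tested were lower at the wavefront. Of 28 genes 25 had a read and 6 were tested in edgeR, of which 3 fell, Cyb561 and Stx1a among them, 0 rose and 3 did not pass; the median log2 fold change was -1.47. Over all genes edgeR called 1.34% lower and 0.399% higher. Cyb561 and Stx1a reached the filter in the trailing libraries alone, so lower was the direction in which they could be called. DESeq2 called 0 of the 4 to which it gave an adjusted p and limma 0 of 20, with 7 lower at an unadjusted p under 0.05, against 5.78% of all genes. Cyb561, the vesicle cytochrome that supplies electrons to the amidating and noradrenaline-making enzymes, had 3 and 3 reads at the wavefront against 45 and 27 in trailing cells (-3.11 ± 0.55, edgeR adjusted p = 0.000187), and passed in 8 of 12 alternatives. Stx1a, the membrane SNARE syntaxin 1A, had 2 and 0 reads at the wavefront against 14 and 12 in trailing cells (edgeR adjusted p = 0.0336) and passed in 2 of 10 alternatives. Rab2a, a GTPase of early vesicle formation, was at -0.48 ± 0.38 (edgeR adjusted p = 0.762). Without wavefront replicate 2 Cyb561 had an edgeR adjusted p of 4.87e-07 and Stx1a 0.138.

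Receptors for these peptides were hardly detected. Of 33 receptor genes 15 had a read and 1 was tested, with 0 called in edgeR, 0 at an unadjusted p under 0.05, and 0 called by DESeq2 or limma. Adcyap1r1, the PACAP receptor, had 19 and 5 reads at the wavefront against 21 and 14 in trailing cells (-0.15 ± 0.46, edgeR adjusted p = 0.958). Ramp3, a partner of the calcitonin-family receptors, had 8 and 1 reads at the wavefront against 3 and 2 in trailing cells, Sstr1 had 5 and 0 against 2 and 2, and Npy2r had 0 and 1 against 1 and 2. For the ligands read here, the galanin receptors Galr1, Galr2 and Galr3 had 0, 2 and 1 reads in all 4 libraries together, and the Cck receptors Cckar and Cckbr had 0.

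Regulators of secretory genes did not pass. Of 10 genes 6 were tested, with 0 called in edgeR, 1 at an unadjusted p under 0.05, and 0 called by DESeq2 or limma; the median log2 fold change was 0.42. Creb1, which binds the cyclic AMP response element, had 35 and 13 reads at the wavefront against 23 and 26 in trailing cells (0.39 ± 0.36, edgeR adjusted p = 0.824). Crem, of the same family, had 15 and 9 reads at the wavefront against 20 and 20 in trailing cells (-0.28 ± 0.45, edgeR adjusted p = 0.908). Rest, the repressor of neuronal and secretory genes, was looked at after the values were seen and was at 0.62 ± 0.46 (edgeR adjusted p = 0.737).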

How the data were processed

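The deposited table gives, per the file headers, CPM for each of the 4 libraries, with the authors' mean of size-factor-scaled reads (a signal), log2 fold change with its standard error, Wald score and unadjusted p-value. Reads were handled with STAR 2.5.2b, bcl2fastq 2.17, FastQC 0.11.9, DESeq2 and featureCounts and the build GRCm38 (mm10), per the submitters' processing notes; the counting settings were not given in the sources used here. Per the labels' protocols libraries were made with Nextera XT. Since 100% of CPM values came out as whole reads (within 0.01), reads were recovered. Repeated identifiers (428 rows) were kept once. The design set limma 3.58.1 with a trend, on log2(CPM + 1) of genes whose mean CPM exceeded 1, and edgeR 4.0.16 (quasi-likelihood, TMM, filterByExpr with 10 reads) where reads could be recovered; DESeq2 1.42.0 under R 4.3.3 was an alternative. Calls are two-sided at a Benjamini-Hochberg adjusted p of 0.05 over all genes tested. Over all genes tested the fold change had a median (log2) of 0.01 in edgeR and -0.35 in limma on CPM. Fits were tested on simulated data. Lengths come from GENCODE M21 and promoters from RefSeq. From each gene list the called genes and those with the most reads, up to 4, are named, from each marker list the leading 2; other names were added after values were seen. Some genes that this rule names are not reported here. The members and lists were chosen with earlier results of these data known.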

Additional observations from a re-analysis of the deposited data

How the results depend on the processing

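In edgeR, 4 members were lower; DESeq2 and the authors' deposited p-values left 1 (Gal), and leaving out 1 library gave between 2 and 4, with 2 without wavefront replicate 1 or trailing replicate 2. In limma, 0 members passed, and 0 without any 1 library; DESeq2 size factors gave 1 (Gal) and the replicate block 3 (Gal, Cck and Scg3). The labels number the replicates but do not say that a number pairs libraries, and deviations of same-numbered libraries correlated at 0.0773. In edgeR the replicate block left 3 members lower, with Cartpt at adjusted p = 0.0953. Scg5 in limma, at -0.40 with all libraries, was between -1.47 and 0.66 with 1 left out, positive without wavefront replicate 2, and passed in no fit. Over all genes edgeR called 23 higher and 77 lower, DESeq2 and the authors' p-values 3 and 10, and edgeR 53 and 89 without wavefront replicate 2, 36 and 42 without wavefront replicate 1, 10 and 34 without trailing replicate 1 and 12 and 29 without trailing replicate 2. Limma called 0 and 0, against 4 and 48 with the block. The genes of the other lists called in edgeR numbered 3, and 2 without wavefront replicate 2 or with library size alone. The cause of these shifts was not tested. Depth limits the account most for Chga, Chgb, Scg5, Vip, Scg2 and Npy, with 24 reads or fewer each.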
